A study of Bos taurus with 4 samples.

Results

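A set of 10 antioxidant genes was followed in bovine blastocysts grown from cryopreserved morulae: the superoxide dismutases SOD1 and SOD2, catalase (CAT), the glutathione peroxidases GPX1, GPX2, GPX3, GPX4 and GPX8, heme oxygenase 1 (HMOX1) and the quinone reductase NQO1. Every probe that carried one of these symbols in the platform table of the EMBV3 bovine embryo array was used, which gave 13 of the 43794 probes on the array, for 10 of the 15229 genes with a symbol. GPX3, GPX8 and SOD1 had 2 probes each and the other 7 genes had 1. Compact morulae from in vitro matured and fertilised oocytes of abattoir ovaries were either vitrified (ethylene glycol and DMSO, on a cryotop) or slow-frozen (glycerol, in straws). After warming or thawing they were cultured to expanded blastocysts, which by the labels came from a beef breed and were collected in pools of 7 embryos at 7 days after fertilisation. The study's methods differ from the labels here: they allow smaller pools and place the morulae, not the blastocysts, at that age. Each procedure was represented by 4 pools, and unfrozen controls were not analysed here. Only embryos that reached expansion were pooled, so the values describe the survivors of each procedure, and a pool mixes all the cells of its embryos.

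Superoxide leaks from the respiratory chain and is formed by oxidases. Superoxide dismutases turn it into hydrogen peroxide, which catalase splits into water and oxygen and glutathione peroxidases reduce with glutathione. HMOX1 opens the heme ring to biliverdin, iron and carbon monoxide, and NQO1 reduces quinones. In mammals HMOX1 and NQO1 are classical targets of the transcription factor NFE2L2, which KEAP1 holds in check. Freezing and thawing are known to raise reactive oxygen species in embryos, and these genes are common readouts of that stress.

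The arrays read expression as fluorescence of dye-labelled, amplified RNA, and values below are normalised intensities on a log2 scale, on which 1 unit is a 2-fold difference. A probe counted as measured in a pool where its raw intensity was higher than that of 95% of the pool's 153 negative control spots. It was tested where this held in at least 3 of the 4 pools of either group. By this rule 9 of the 13 probes were tested, for 8 genes, and 7 probes (6 genes: SOD1, SOD2, CAT, GPX1, GPX2 and GPX4) were measured in all 8 pools. Both GPX3 probes, 1 of the 2 GPX8 probes and the NQO1 probe were not tested. Between pools 63.28 to 74.12% of probes were above the negative controls, and the correlation between any 2 pools lay between 0.9572 and 0.9854. Vitrified pool 3 and slow-frozen pool 2 stood farthest from the others on the first principal component (scores 56.34 and -34.15, with the other 6 pools between -10.27 and 9.521). The vitrified and the slow-frozen pools were hybridised on separate slides, so slide and group cannot be told apart, and pools 1 and 2 of each group were labelled with Cy5 and pools 3 and 4 with Cy3.

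None of the 9 antioxidant probes differed between vitrified and slow-frozen blastocysts after adjustment over the 30034 probes tested (limma with Benjamini-Hochberg adjustment), a test that 0.00333% of all probes (1 probe) passed. At an unadjusted p under 0.05 the count was 1 of 9 (11.1%), which was the HMOX1 probe, against 4.83% of all probes. HMOX1 was above the negative controls in 2 vitrified and 4 slow-frozen pools, so it entered the test through the group in which it was higher, and with only probes measured in all 8 pools the count was 0 of 7, against 5.79% of all such probes. No antioxidant probe had both a 2-fold difference and an unadjusted p under 0.05, which 0.183% of all probes had. For none of the 9 did the 4 vitrified pools lie wholly apart from the 4 slow-frozen pools, as they did for 2.46% of all probes. Differences, given throughout as vitrified minus slow-frozen, were positive for 4 probes and negative for 5, with a median of -0.01 against 0.01 over all probes. For 8 of the 9 the 95% interval of the difference lay within 2-fold in either direction, the exception being GPX4, and 8 of the 9 intervals, all but that of HMOX1, held 0. The interval of HMOX1, a dim probe, came close to 2-fold at -0.98. Its difference moved from -0.53 to -0.67 with plain background subtraction, for which no interval is given. The spread left within groups and dyes was wider than over all probes, with a median residual SD of 0.33 for the 9 probes against 0.23 for all probes, and 7 of the 9 lay above that overall median. This comparison was not matched for signal intensity.

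**Figure D1:**
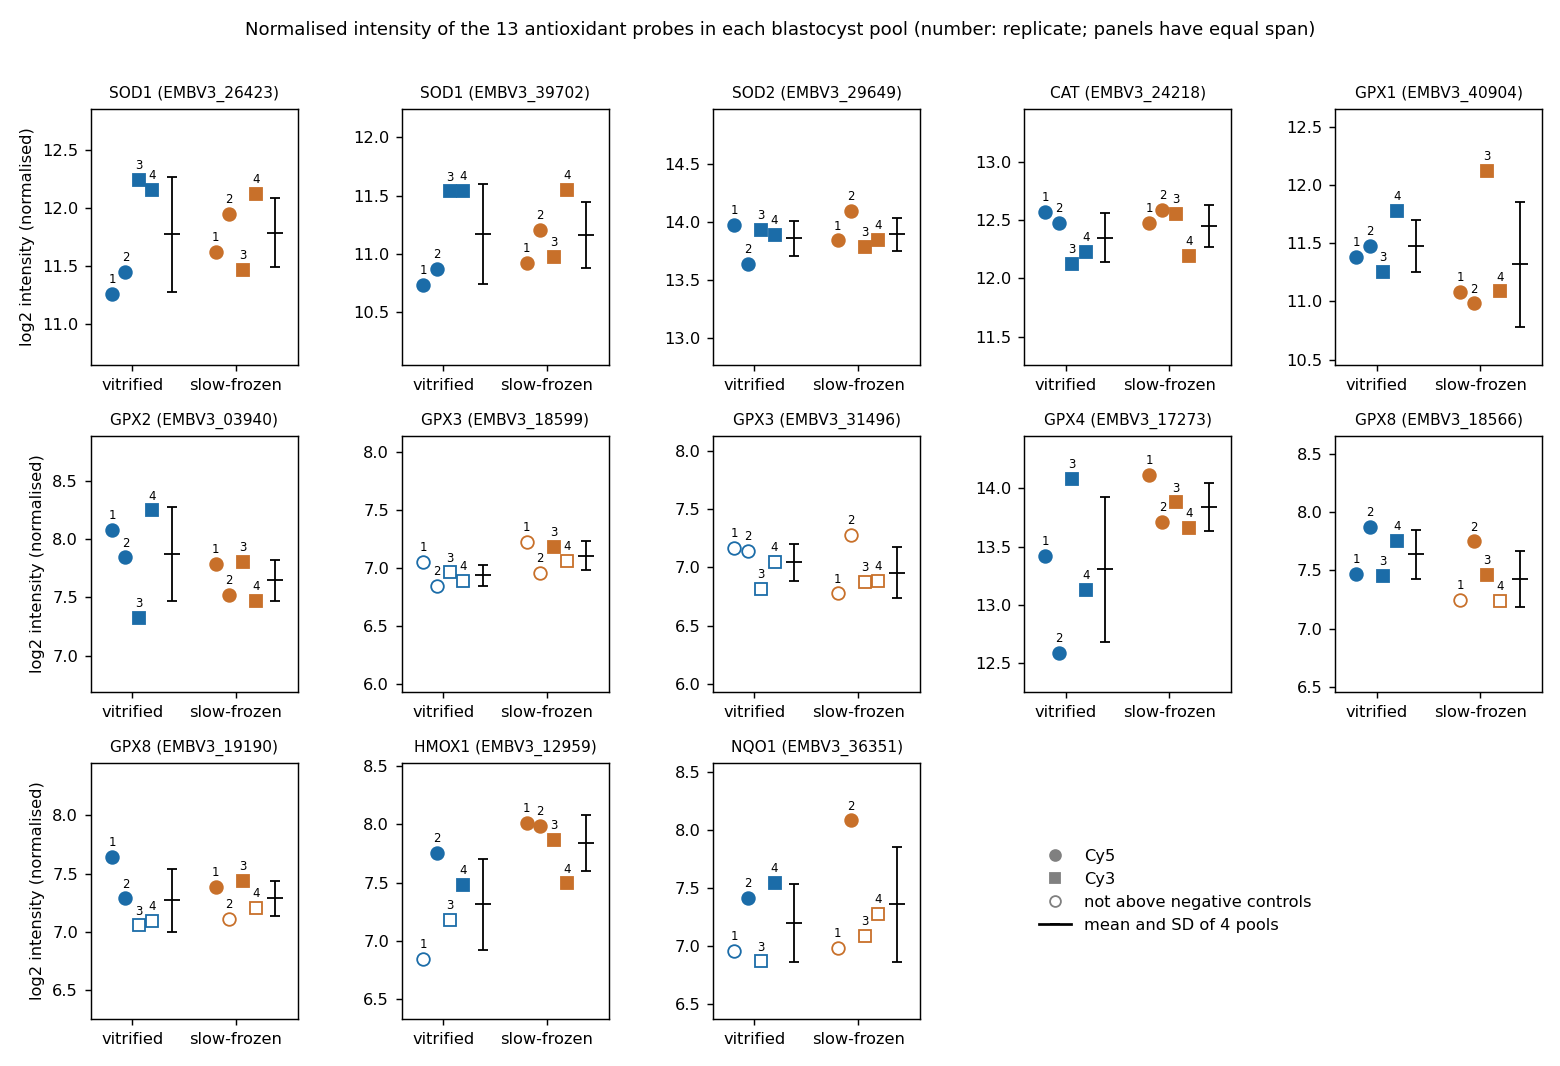
Normalised log2 intensity (vertical axes, all of equal span) of the 13 antioxidant probes in the vitrified pools (blue, left) and the slow-frozen pools (orange, right), with circles for Cy5 and squares for Cy3, open symbols for values not above the negative controls, and bars for the mean and SD of 4 pools. In each panel the pools of the groups overlap, and slow-frozen pool 3 stands alone at 12.12 for GPX1.

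SOD1, the copper and zinc enzyme of the cytosol, was read by 2 probes. With probe EMBV3_26423 the vitrified pools 1 to 4 had 11.26, 11.45, 12.24 and 12.15, against 11.62, 11.95, 11.47 and 12.12 in the slow-frozen pools. With probe EMBV3_39702 the vitrified pools had 10.73, 10.87, 11.54 and 11.54, against 10.92, 11.20, 10.97 and 11.55 in the slow-frozen pools. Vitrified pools 1 and 2 were low and vitrified pools 3 and 4 high with both probes, and the groups overlapped almost fully. The differences were -0.01 ± 0.21 (SE; 95% interval -0.48 to 0.45) for EMBV3_26423 and 0.01 ± 0.18 (-0.38 to 0.40) for EMBV3_39702, with an adjusted p of 1.00 each in limma. The probes share their RNA and are not replicates, but they ranked the pools alike: over the 8 pools Pearson's r was 0.973 (exact permutation p = 0.00055, two-sided) and Spearman's rho 0.881 (exact permutation p = 0.0072). The permutations treated the 8 pools as exchangeable, although the pools differ in group and dye. Without vitrified pools 1 and 3, the farthest from the median, r was 0.958 (n = 6), and this was the only correlation tested.

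The SOD1 values also differed between dyes at the unadjusted threshold. Cy5 minus Cy3 was -0.47 ± 0.18 with EMBV3_39702 (limma unadjusted p = 0.024, adjusted p = 0.58, a threshold that 0.0433% of all probes passed) and -0.43 ± 0.21 with EMBV3_26423 (unadjusted p = 0.069). EMBV3_39702 was the only antioxidant probe with an unadjusted dye p under 0.05, against 7.29% of all probes. Within the Cy5 pools the vitrified minus slow-frozen difference was -0.43 with EMBV3_26423 and -0.26 with EMBV3_39702, whereas within the Cy3 pools it was 0.40 and 0.28. The difference between dyes in this contrast was not tested. Dye and replicate number ran together and cannot be told apart.

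SOD2, the manganese enzyme of the mitochondrial matrix, varied least among the 8 pools of the probes measured throughout. Its probe EMBV3_29649 had 13.98, 13.64, 13.93 and 13.89 in the vitrified pools, against 13.84, 14.10, 13.79 and 13.84 in the slow-frozen pools. Slow-frozen pool 2 was the highest and vitrified pool 2 the lowest, with the other 6 between them in no order by group. The difference was -0.03 ± 0.14 (95% interval -0.35 to 0.28, adjusted p = 1.00), so the interval ran from 0.784 to 1.22 times the slow-frozen signal.

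Catalase, the peroxisomal enzyme, likewise showed no detectable difference. Probe EMBV3_24218 had 12.57, 12.48, 12.12 and 12.23 in the vitrified pools, against 12.48, 12.59, 12.56 and 12.19 in the slow-frozen pools. The lowest values were vitrified pools 3 and 4 and slow-frozen pool 4. The difference was -0.11 ± 0.14 (95% interval -0.41 to 0.20, adjusted p = 1.00), and it was -0.0136 without slow-frozen pool 3, -0.07 without vitrified pool 3 and -0.16 without slow-frozen pool 4. Across the 8 pools, as a description, CAT ran against SOD1, with r = -0.81 to EMBV3_26423 and -0.86 to EMBV3_39702. These points share the dye layout, since Cy5 minus Cy3 was 0.25 ± 0.14 for CAT and negative for SOD1.

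**Figure D2:**
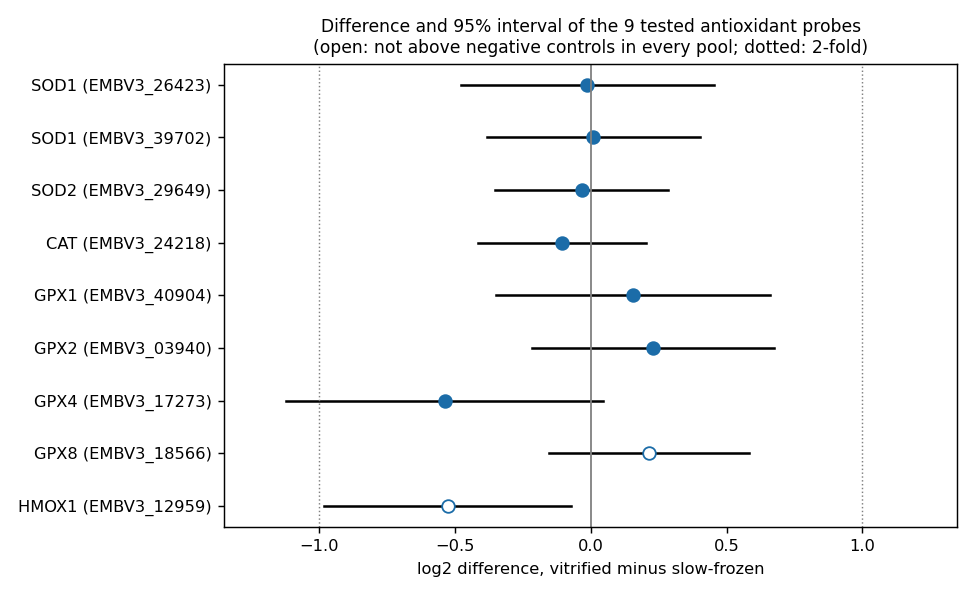
Difference in log2 intensity, vitrified minus slow-frozen (horizontal axis), with its 95% interval for the 9 tested antioxidant probes, where filled points were above the negative controls in all 8 pools, open points were not, and dotted lines mark 2-fold. The interval of HMOX1 (-0.98 to -0.07) is the only one clear of 0, and that of GPX4 (-1.12 to 0.05) is the only one that reaches past 2-fold.

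Among the glutathione peroxidases, GPX4 had the difference farthest from 0 and also the widest spread. GPX4 is the selenoenzyme that reduces lipid hydroperoxides inside membranes and thereby holds off ferroptosis. Its probe EMBV3_17273 had 13.42, 12.58, 14.08 and 13.13 in the vitrified pools, against 14.12, 13.71, 13.88 and 13.66 in the slow-frozen pools. Vitrified pools 1, 2 and 4 lay below every slow-frozen pool, while vitrified pool 3 was second highest of the 8. The vitrified pools averaged 13.30 ± 0.62 and the slow-frozen pools 13.84 ± 0.21 (SD, n = 4 each). The difference was -0.54 ± 0.26 (95% interval -1.12 to 0.05; limma unadjusted p = 0.067, adjusted p = 1.00), a signal 1.45-fold lower in vitrified pools.

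The size of the GPX4 difference rested on single pools. It was -0.91 within the Cy5 pools and -0.17 within the Cy3 pools. Without vitrified pool 3, one of the pools that stood apart, it was -0.80 (limma unadjusted p = 0.0047, adjusted p = 0.716), and without vitrified pool 2 it was -0.30 (unadjusted p = 0.25). Of all probes tested, 94.49% had a smaller residual SD. With an SD of 0.52 over the 8 pools, GPX4 varied most of the antioxidant probes measured throughout. The genes whose intensities tracked it best over the 8 pools, among 11727 genes, were DHRS1 (r = 0.954), PPIB, a cyclophilin of the endoplasmic reticulum (r = 0.952), and the SNARE protein YKT6 (r = 0.926), and 18 genes had r above 0.9. These correlations are descriptions over the same 8 pools.

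GPX1, the widely expressed cytosolic peroxidase, turned on 1 slow-frozen pool. Probe EMBV3_40904 had 11.38, 11.48, 11.25 and 11.78 in the vitrified pools, against 11.08, 10.98, 12.12 and 11.09 in the slow-frozen pools. All 4 vitrified pools lay above slow-frozen pools 1, 2 and 4, and slow-frozen pool 3 lay above every vitrified pool. The difference was 0.15 ± 0.23 (95% interval -0.35 to 0.66, adjusted p = 1.00). Without slow-frozen pool 3 it was 0.41 (limma unadjusted p = 0.036, adjusted p = 0.86), and without slow-frozen pool 4 it was -0.0038, so neither size nor sign was settled by these pools.

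GPX2, best known from the gut epithelium, had a dim but measurable signal. Its probe EMBV3_03940 had 8.08, 7.84, 7.33 and 8.25 in the vitrified pools, against 7.79, 7.52, 7.80 and 7.47 in the slow-frozen pools. Vitrified pool 3 was the lowest of all 8, and vitrified pools 1, 2 and 4 exceeded all slow-frozen pools. The raw intensity was 346 in vitrified pool 3 and 215 in slow-frozen pool 4, close to the negative control bounds of 332 and 202.6. The difference was 0.23 ± 0.20 (95% interval -0.22 to 0.67, adjusted p = 1.00), and it was 0.43 without vitrified pool 3 (limma unadjusted p = 0.026, adjusted p = 0.92) and 0.06 without vitrified pool 4.

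GPX8, a membrane protein of the endoplasmic reticulum without selenium, was near the limit of measurement. Probe EMBV3_18566 had 7.47, 7.87, 7.45 and 7.75 in the vitrified pools, all above the negative controls, against 7.25, 7.75, 7.46 and 7.24 in the slow-frozen pools, of which pools 1 and 4 were not above them. The probe was thus tested on the strength of the vitrified pools. The difference was 0.21 ± 0.17 (95% interval -0.15 to 0.58, adjusted p = 1.00). It was 0.12 without slow-frozen pool 1, 0.14 without vitrified pool 2, 0.32 without slow-frozen pool 2, and 0.42 without vitrified pool 3 and slow-frozen pool 2 (limma unadjusted p = 0.044, adjusted p = 0.99). The other GPX8 probe, EMBV3_19190, was above the negative controls in 2 vitrified and 2 slow-frozen pools. It had 7.65, 7.29, 7.06 and 7.09 in the vitrified pools, against 7.39, 7.11, 7.44 and 7.20 in the slow-frozen pools.

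GPX3, the secreted peroxidase of plasma, was not well above background with either probe. EMBV3_18599 exceeded the negative controls in 0 vitrified pools and 1 slow-frozen pool, and EMBV3_31496 in 0 pools of either group. No difference is given for a signal at this level.

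**Figure D3:**
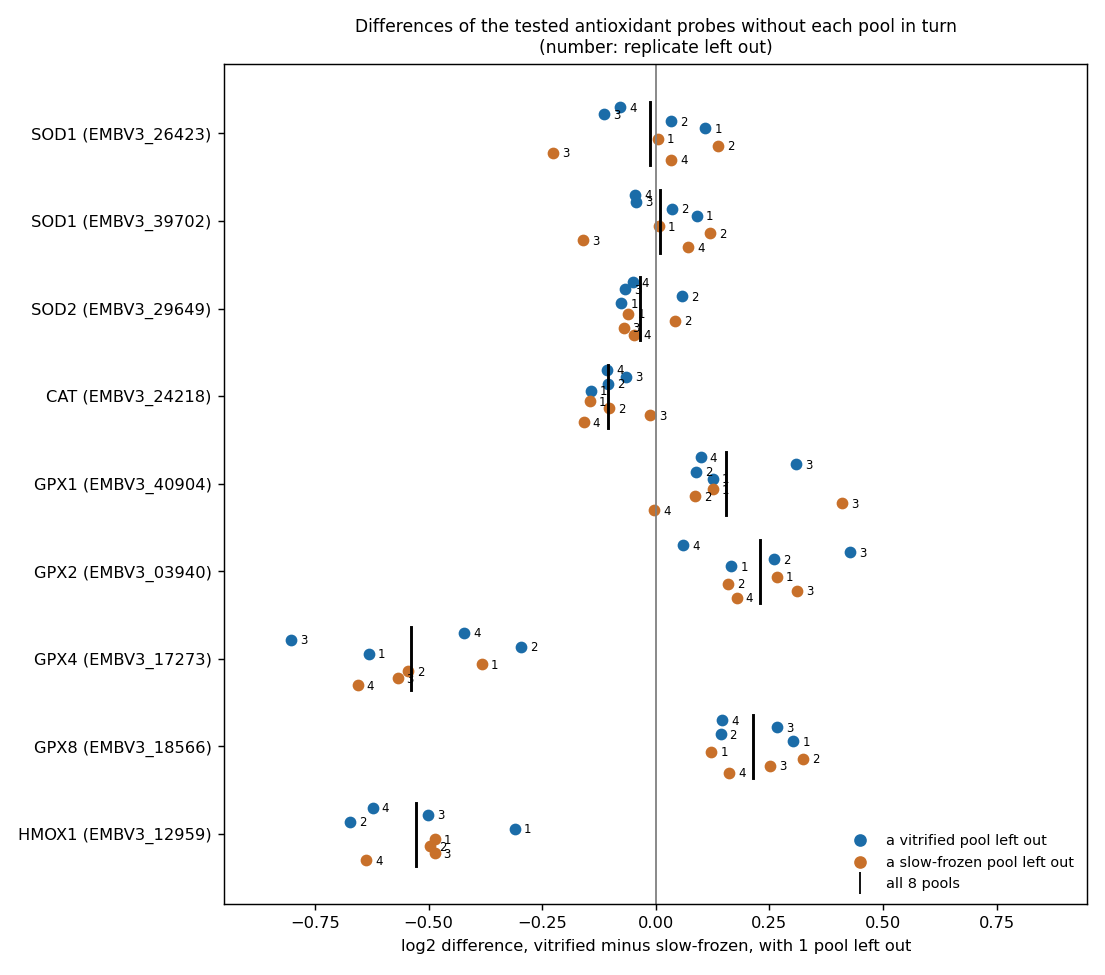
Log2 difference, vitrified minus slow-frozen (horizontal axis), of the 9 tested antioxidant probes with 1 pool left out at a time, blue where the pool was vitrified and orange where it was slow-frozen, numbered by the replicate left out, with a black bar for all 8 pools. GPX4 ranges from -0.80 to -0.30 and HMOX1 from -0.67 to -0.31, always below 0, while the SOD1 and SOD2 probes fall on both sides of it.

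HMOX1 was the only antioxidant gene with an unadjusted p under 0.05, and its signal was dim. Probe EMBV3_12959 had 6.84, 7.75, 7.18 and 7.48 in the vitrified pools, against 8.01, 7.98, 7.87 and 7.49 in the slow-frozen pools. Slow-frozen pools 1 to 3 lay above every vitrified pool, and slow-frozen pool 4 fell inside the vitrified range. The vitrified pools averaged 7.31 ± 0.39 and the slow-frozen pools 7.84 ± 0.24 (SD, n = 4 each). The difference was -0.53 ± 0.21 (95% interval -0.98 to -0.07; limma unadjusted p = 0.027, adjusted p = 0.95), and no fold is given because only 2 of the 4 vitrified pools were above the negative controls. Of all probes, 2.38% had an unadjusted p under 0.05 with the vitrified pools lower.

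The raw HMOX1 signals stood close to the negative controls. In the vitrified pools the raw intensities were 77, 176, 315 and 206, where the negative control bounds were 81, 126.8, 332 and 200.8, so that pools 1 and 3 were not above them. In the slow-frozen pools they were 224, 171, 370 and 220 against bounds of 141.6, 104.4, 186.4 and 202.6, all above. The probe was therefore tested through the slow-frozen pools, the group in which it was higher. The difference was -0.70 within the Cy5 pools and -0.35 within the Cy3 pools. Without vitrified pool 1 it was -0.31 (limma unadjusted p = 0.095). It also missed the unadjusted threshold without vitrified pool 3 (unadjusted p = 0.058), without slow-frozen pool 1 (unadjusted p = 0.068), without slow-frozen pool 2 (unadjusted p = 0.061) and without slow-frozen pool 3 (unadjusted p = 0.063). It met that threshold without vitrified pool 2 (limma unadjusted p = 0.0099), vitrified pool 4 (0.020) or slow-frozen pool 4 (0.016). With vitrified pool 3 and slow-frozen pool 2, the pools that stood apart, both left out, it was -0.46 (limma unadjusted p = 0.13). The antioxidant probes with an unadjusted p under 0.05 were then GPX4 and GPX8, 2 of 9, against 4.42% of all probes.

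NQO1, the other target of NFE2L2, was not well above background in most pools. Its probe EMBV3_36351 had 6.96, 7.42, 6.87 and 7.54 in the vitrified pools, of which pools 2 and 4 were above the negative controls, against 6.99, 8.08, 7.09 and 7.28 in the slow-frozen pools, of which pool 2 alone was above them. No pattern by group can be read at this signal.

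The genes that work with these enzymes were taken as 7 lists of 86 genes, of which 70 had a tested probe. None passed the adjusted threshold, and 10 (14.3%) had an unadjusted p under 0.05, against 4.83% of all probes. Of these 10, 3 were higher and 7 lower in vitrified pools, where all probes were called higher in 2.45% and lower in 2.38%. The bases are unlike, since each gene was represented by its brightest tested probe and the shares are over all tested probes. In a fit of only the probes measured in all 8 pools, the share under 0.05 was 5.79%. The 70 differences split evenly, 35 positive and 35 negative, with a median of 0.00 against 0.01 over all probes. The count was 5 to 9 with any 1 pool left out, where 2.91 to 5.97% of all probes were called. It was 9 without vitrified pool 3 and slow-frozen pool 2, against 4.42% of all probes.

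The second heme oxygenase and a further glutathione peroxidase had the smallest p-values among the close relatives, of which 5 of 7 were tested. HMOX2, the constitutive heme oxygenase, had 9.29, 9.62, 9.06 and 9.83 in the vitrified pools, against 10.04, 10.45, 10.17 and 10.20 in the slow-frozen pools. Every vitrified pool lay below every slow-frozen pool, with a difference of -0.77 ± 0.19 (95% interval -1.18 to -0.35; limma unadjusted p = 0.0019, adjusted p = 0.67). GPX6 had 12.08, 12.33, 12.49 and 12.63 in the vitrified pools, against 12.80, 12.92, 12.72 and 13.28 in the slow-frozen pools. These also did not overlap (difference -0.55 ± 0.16, adjusted p = 0.82), though a second GPX6 probe was too dim to be tested. The remaining relatives were CCS, the copper chaperone of SOD1 (0.16 ± 0.17), GPX5 (-0.02 ± 0.14) and GPX7 (0.29 ± 0.16), and SOD3 and NQO2 had no tested probe.

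Peroxiredoxins and thioredoxins, which remove hydrogen peroxide in parallel with catalase and glutathione peroxidases, were tested for all 16 listed genes, and 4 had an unadjusted p under 0.05. PRDX4, the peroxiredoxin of the endoplasmic reticulum, averaged 13.54 ± 0.38 in vitrified pools and 13.10 ± 0.21 in slow-frozen pools (SD, n = 4 each; difference 0.44 ± 0.19, adjusted p = 1.00). TXNIP, the inhibitor of thioredoxin, averaged 9.10 ± 0.44 in vitrified pools and 8.53 ± 0.42 in slow-frozen pools (0.58 ± 0.25, adjusted p = 1.00). PRDX5 lay lower in every vitrified pool than in any slow-frozen pool (12.06 ± 0.32 and 12.53 ± 0.15; difference -0.47 ± 0.18, adjusted p = 0.94, with -0.32 from a second probe). TXNRD1, a thioredoxin reductase, averaged 14.88 ± 0.20 in vitrified pools and 15.25 ± 0.45 in slow-frozen pools (-0.37 ± 0.17, adjusted p = 1.00, with -0.26 from a second probe). The list thus held 2 genes in each direction, and its median was 0.04.

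Of the regulators around NFE2L2, all 11 were tested and 1 had an unadjusted p under 0.05. This was MAFG, a small MAF protein that pairs with NFE2L2 on DNA, with 9.97, 10.16, 10.07 and 10.26 in the vitrified pools, against 10.77, 10.63, 10.30 and 10.45 in the slow-frozen pools. The groups did not overlap (difference -0.42 ± 0.15, adjusted p = 0.94). NFE2L2 itself differed by -0.12 ± 0.16 (95% interval -0.48 to 0.24) and KEAP1 by -0.36 ± 0.19 (-0.77 to 0.05), both with an adjusted p of 1.00. The list had a median of -0.12, with 4 genes higher and 7 lower, and its median was -0.02 without vitrified pool 1.

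Among the heme and iron partners of HMOX1, 9 of 12 genes were tested, 2 higher and 7 lower, with a median of -0.10. FLVCR2, a membrane transporter related to FLVCR1, had 13.33, 12.91, 13.64 and 13.70 in the vitrified pools, against 13.69, 14.50, 13.93 and 14.15 in the slow-frozen pools. Vitrified pool 4 overlapped with slow-frozen pool 1 by a narrow margin, and the difference was -0.67 ± 0.21 (95% interval -1.13 to -0.21, adjusted p = 0.90). It was the only gene of the list with an unadjusted p under 0.05.

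GPX1, GPX2, GPX3 and GPX4 carry selenocysteine, so the selenoprotein machinery was listed too, and all 10 genes were tested. TRNAU1AP, which binds the selenocysteine tRNA, was higher in every vitrified pool than in any slow-frozen pool (10.73 ± 0.23 and 10.33 ± 0.22, SD, n = 4 each; difference 0.40 ± 0.17, adjusted p = 1.00, with 0.32 from a second probe). SELENOP, the selenium carrier of plasma, averaged 13.23 ± 0.18 in vitrified pools and 13.88 ± 0.58 in slow-frozen pools (-0.65 ± 0.25, adjusted p = 0.95). The list median was 0.18 with all pools and -0.06 without vitrified pool 3 and slow-frozen pool 2.

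The suppliers of glutathione and NADPH (12 of 17 genes tested, median 0.03) and the enzymes that make superoxide or peroxide (7 of 13, median -0.01) had no gene with an unadjusted p under 0.05.

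**Figure D4:**
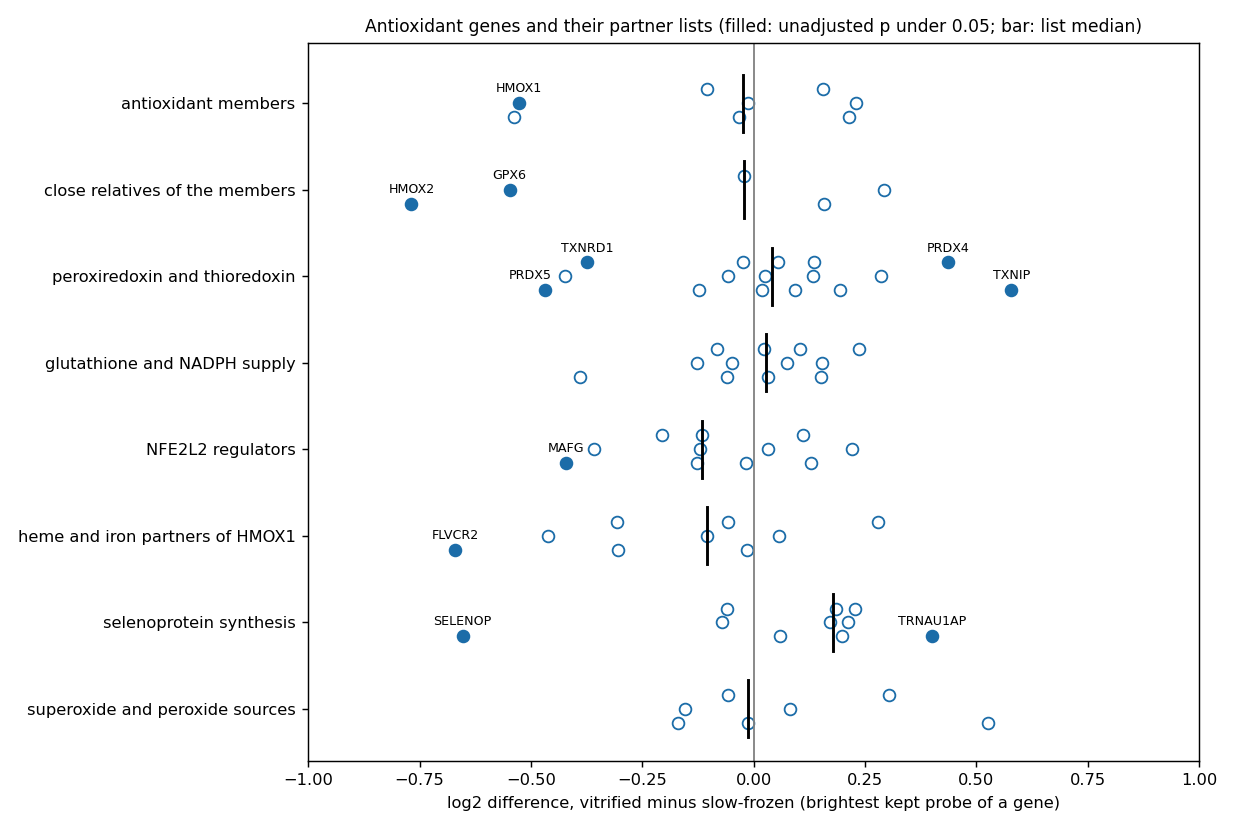
Log2 difference, vitrified minus slow-frozen (horizontal axis), of the tested antioxidant genes (top row) and of each partner list, 1 point a gene by its brightest tested probe, filled and named where the unadjusted p was under 0.05, with a bar at the list median. List medians lie between -0.12 and 0.18, and HMOX2 (-0.77) lies farthest left.

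Markers of the cell lineages of the blastocyst were set beside these values, and none passed the adjusted threshold. Of 20 trophectoderm markers 19 were tested, 17 of them lower in vitrified pools, 8 with an unadjusted p under 0.05, all lower, where 2.38% of all probes were called lower, and the median difference was -0.37. Their mean log2 intensity ranged from 10.70 to 11.24 in vitrified pools and from 11.23 to 11.63 in slow-frozen pools. The called genes included CYP11A1, KRT19 and PTGS2, which the study had reported as downregulated after vitrification against unfrozen controls. The study also listed CYP11A1 as lower against slow-frozen. These reports came from the study's own arrays, so the list was not independent of these data and its count is no separate test. CDX2, GATA2, GATA3, TFAP2C, TEAD4, ELF5, EOMES, KRT8, KRT18, IFNT and TKDP1 were tested and not called. CYP11A1 was above the negative controls in 2 vitrified and 4 slow-frozen pools, so it was tested through the group in which it was higher. Further tested probes of called genes gave 0.03, -0.42 and 0.39 for DAB2, -1.01 and -0.69 for PTGS2, and -0.22 for TFAP2A. Inner cell mass markers (11 tested, 7 higher, median 0.17) ranged from 10.08 to 10.38 in vitrified pools and from 9.94 to 10.16 in slow-frozen pools. At the unadjusted threshold 3 of the 11 were called higher and 1 lower, where all probes were called higher in 2.45% and lower in 2.38%. Hypoblast markers (7 tested, 6 higher, 1 called higher against 2.45% of all probes, median 0.31) ranged from 10.96 to 11.33 in vitrified pools and from 10.29 to 11.13 in slow-frozen pools. In pooled embryos fewer cells of a type and less RNA per cell cannot be told apart, and the part of these marker differences in the HMOX1, GPX4, HMOX2 and partner gene values was not tested. Cumulus or granulosa cell markers had a median of -0.07 over 7 tested genes. Of the 12 with a probe, 3 were above the negative controls in all 8 pools, and LHCGR and AMH in no pool. Blood cell markers had a median of -0.19 over 6 tested genes. Of these, PTPRC had an unadjusted p under 0.05 and was lower in vitrified pools, as were 2.38% of all probes. Of the 8 blood cell genes with a probe, 4 were above the negative controls in all 8 pools. The lineage markers that define a blastocyst were present, with 17 of 19 trophectoderm, 11 of 13 inner cell mass and 7 of 9 hypoblast genes above the negative controls in all 8 pools.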

How the data were processed

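Per the file headers, the deposited intensity values are medians of each spot and its local background in both channels, without subtraction, which the authors read with Array-Pro. The authors also deposited a log2 ratio per spot; its scale and direction were checked against the scanner values (r of at least 0.999994), and it was used as an alternative. Each file joins a vitrified and a slow-frozen channel, which the authors had hybridised on separate slides. Amplification of the RNA before labelling may compress differences, and dim probes carry more error. The number of arrays limits the precision.

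The background correction was normexp with an offset of 50, and loess was applied within files and quantile normalisation over the 8 channels before log2 was taken. Of 43794 probes, 30034 were tested with limma 3.58.1 in R 4.3.3 (two-sided), with dye as an additive term and Benjamini-Hochberg adjustment over all of them. The scripts were tested on simulated data. Replicates were separate pools of embryos by the labels and methods. Alternatives covered background correction, normalisation, filter, dye, blocks, the deposited ratios and leaving out pools.

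Gene symbols came from the platform table, updated for 1524 probes from RefSeq (ARS-UCD2.0), which added 0 probes to the antioxidant genes. Partner genes were named where the unadjusted p was under 0.05 (at most 4 a list), plus NFE2L2 and KEAP1. CCS, GPX5 and GPX7 were named after their values were seen. The antioxidant genes and lists were chosen with earlier results of these data known. The files name no genome build, so no coordinates are given. Probe sequences were not used here.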

Additional observations from a re-analysis of the deposited data

Results flagged for a closer look

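Slow-frozen pool 3 stood far from the other slow-frozen pools for GPX1 (EMBV3_40904), at 12.12 against 10.98 to 11.09, a gap of 1.04 that made up 0.909 of the group's range, past Dixon's 95% critical value for 4 samples. Of 18 groups of 4 pools examined, 9 probes in 2 groups, this was the only one past that value, and chance flags about 5% of groups. The raw intensity was 4767 in that pool. GPX1 had 1 probe, so the value could not be set against a second one.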

How the results depend on the processing

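No antioxidant probe passed the adjusted threshold under any of the 19 alternatives, with a lowest adjusted p of 0.41 for HMOX1 and 0.46 for GPX4, both with the file as a random block. CAT, GPX2, GPX4, GPX8 and HMOX1 kept their sign wherever they were tested. The 1 probe of the whole array past the adjusted threshold was lost (0 probes) without background correction, without quantile normalisation, without loess, with only probes above the negative controls in all 8 pools, with the deposited ratios, and with each pool left out in turn (0 to 0). Antioxidant probes with an unadjusted p under 0.05 numbered 0 of 7 with only probes above the negative controls in all 8 pools, where HMOX1 was not tested. Of all such probes 5.79% were called. With the file as a random block they numbered 2 of 9, against 9.04% of all probes. With the deposited ratios they numbered 2 of 9, against 7.39%, and were GPX4 and HMOX1 each time. With a pool left out they numbered 0 to 2 of 9, where 2.91 to 5.97% of all probes were called. Partner genes with an unadjusted p under 0.05 numbered 5 of 70 without quantile normalisation, against 3.29% of all probes, and 5 to 9 with a pool left out. Antioxidant probes past 2-fold with an unadjusted p under 0.05 numbered 0 throughout. SOD1 (EMBV3_39702) had -0.0107 with the deposited ratios. With a pool left out, SOD1 ranged from -0.23 to 0.14 (EMBV3_26423) and from -0.16 to 0.12 (EMBV3_39702), SOD2 from -0.0761 to 0.0581 and GPX1 from -0.0038 to 0.41. Leaving out vitrified pool 3 and slow-frozen pool 2 together, chosen after seeing the data, gave 0 probes past the adjusted threshold. It gave 2 of 9 antioxidant probes with an unadjusted p under 0.05, against 4.42% of all probes. The differences were then 0.0474 for SOD1 (EMBV3_26423) and 0.0194 for SOD2. The cause of these changes was not tested. Same-numbered pools of the groups shared little beyond the number (correlations of their deviations 0.164, 0.0875, -0.0313 and 0.0857), and not every pool correlated best with its own number. With the replicate number as a block, 0 probes passed the adjusted threshold. GPX4 (limma unadjusted p = 0.033) and HMOX1 (limma unadjusted p = 0.031) then had an unadjusted p under 0.05, 2 of 9, against 5.11% of all probes. Dim signal limits HMOX1, GPX8, GPX3 and NQO1, which lay near the negative controls, and GPX2, which lay near them in some pools.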
